A study of Mus musculus with 5 samples.

Results

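Interferon-stimulated genes are the genes that cells switch on when interferon binds its receptor, and 41 of them, chosen by gene symbol, were followed among the 34970 genes of a count table from 5 mouse RNA-sequencing libraries. All 41 symbols were in the table. PB is the library of blood cells, described in the design text as CD45-positive, BM that of bone marrow, MCC that of a myeloid-like cell complex, MEF that of mouse embryonic fibroblasts and iPSC that of induced pluripotent stem cells. The genotype of every library is wild type; the labels give no strain, age or treatment, nor how the MCC cells were made. The series title concerns turning fibroblasts directly into macrophages. Each group is 1 library, so differences have no replicate check and p-values are absent. The total counts lay between 30078366 and 47557598.

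Type I interferon receptors signal through the kinases JAK1 and TYK2 to STAT2, which acts with IRF9 at interferon-stimulated response elements in the promoters of target genes. The products act in layers: sensors detect foreign RNA and DNA, enzymes degrade or block viral RNA, and membrane proteins and GTPases act on virus entry, release and intracellular pathogens. Macrophages are known for constitutive low-level interferon signalling, whereas pluripotent stem cells are known for a weak response to interferon.

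Marker genes were read first, as a check of the labels. Macrophage genes were at 5 CPM (read counts scaled to library size) or more for 10 of 10 in MCC, 10 in BM, 5 in PB, 1 in MEF and 2 in iPSC, with summed levels of 7773, 658, 814, 12.1 and 32.2 CPM. Fibroblast genes reached that level for 9 of 10 in MCC and 10 of 10 in MEF, against 1 in PB, 4 in BM and 5 in iPSC. Their summed levels were 29572 CPM in MCC and 22019 in MEF, against 174 in PB, 123 in BM and 380 in iPSC. MCC thus held both macrophage and fibroblast transcripts. Of 10 pluripotency genes 10 did so in iPSC and 1 in MCC. PB and BM were mixtures: neutrophil genes summed to 63884 CPM in BM, 8054 CPM in PB and 15.7 CPM in MCC, and T and NK cell genes to 1032 CPM in PB, 175 CPM in BM and 4.21 CPM in MCC. Erythroid genes summed to 94586 CPM in PB, 13856 CPM in BM and 12.04 CPM in MCC. The T cell genes Cd3e, Cd3g and Cd8a had 0 reads in MCC. In such bulk libraries fewer cells of a type and less RNA per cell cannot be told apart, and the part that cell composition had in the values below was not tested. The library code of PB lies far from the other 4, so PB as a group and a possible batch cannot be told apart.

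The promoters of several members carried the core of the interferon-stimulated response element. The stretches around it are shown because they are a sequence feature of those members, separate from their read counts. The 250 bases before the RefSeq start (build GRCm38.p6, the same coordinates as mm10) were searched on both strands for GAAA, any 2 bases and GAAA again, which reads as a pair of TTTC on the other strand. Of the 30 members with such a window, 14 held it in at least 1 window, or 46.7%, against 3.46% of the 27025 genes with a window. The longer form, the same core followed directly by CT, was in 9 members and in 0.255% of all genes. The core was in Bst2, Isg15, Stat2 and Ifit3, the 4 of these 14 with the highest CPM in MCC. The stretches of Ifit1, Oas1a, Oas3 and Rsad2 were added after their values were seen. Ifit1, Oas3 and Rsad2 differed at least 4-fold in level between MCC and BM, while Oas1a stood in MCC within 2-fold of each blood library. Each line runs 5′ to 3′ along the gene's strand, with the core matches in capitals.
Bst2 (chr8:71537562-71537621, minus strand): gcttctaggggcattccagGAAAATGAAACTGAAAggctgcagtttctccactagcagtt
Isg15 (chr4:156200850-156200909, minus strand): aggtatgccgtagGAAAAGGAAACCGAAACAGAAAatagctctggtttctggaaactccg
Stat2 (chr10:128270251-128270310, plus strand): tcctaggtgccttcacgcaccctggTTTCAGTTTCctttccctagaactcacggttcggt
Ifit3 (chr19:34583382-34583441, plus strand): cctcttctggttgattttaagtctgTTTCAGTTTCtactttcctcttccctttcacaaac
Ifit1 (chr19:34640779-34640838, plus strand): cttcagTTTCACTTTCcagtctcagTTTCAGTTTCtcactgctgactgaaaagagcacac
Oas1a (chr5:120907526-120907564, minus strand): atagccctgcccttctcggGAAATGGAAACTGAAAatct
Oas3 (chr5:120777700-120777759, minus strand): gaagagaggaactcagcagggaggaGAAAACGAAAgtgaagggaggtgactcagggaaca
Rsad2 (chr12:26456538-26456597, minus strand): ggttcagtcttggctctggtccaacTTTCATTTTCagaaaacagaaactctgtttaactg
The cores of Isg15 overlapped in a run of 3, and those of Bst2 and Oas1a in a run of 2. Ifit1 held 2 separate cores, and Ifit3 had another outside the stretch shown, while Stat2, Oas3 and Rsad2 each held 1 in their whole window. Ifitm3 was the member highest in MCC among those whose window held no match. A match describes letters in a window and not a bound site, and no match says nothing of what binds there.

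Most of the 41 genes were far higher in PB, BM and MCC than in MEF and iPSC. PB, BM and MCC all lay above both MEF and iPSC for 38 of 41 members, and for 39 under DESeq2 or total-count scaling. The same held for 16.1% of the 13998 genes that reached 5 CPM in any library. Gbp2, Irgm1 and Bst2 were the exceptions. At 5 CPM or more stood 40 members in PB and 39 in BM, 41 in MCC, and 18 in MEF and 18 in iPSC. Of those 13998 genes, 73.2% did so in PB and 75.7% in BM, 79.9% in MCC, and 76.2% in MEF and 79.3% in iPSC. The median member level was 49.4 CPM in PB and 40.998 in BM, 57.8 in MCC, and 3.17 in MEF and 4.25 in iPSC. Over the 13998, medians were 18.3 CPM in PB and 22.9 in BM, 24.8 in MCC, and 22.1 in MEF and 21.7 in iPSC. No member had 0 reads in any library. The 41 genes together took 0.377% of the counts in PB and 0.233% in BM, 0.445% in MCC, and 0.0552% in MEF and 0.0764% in iPSC.

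The library with the highest level was MCC for 22 members, PB for 18 and BM for 1, and DESeq2 size factors gave 17, 22 and 2. MCC was the highest library for 21.1% of all genes at that level and PB for 22.6%. MEF was the lowest library for 23 members and iPSC for 18, against 15.9% and 17.1% of all genes. The sum over members in MCC rested on few genes. Ifi27l2a, Ifitm3 and Bst2 made up 55.6% of the MCC reads of the 41 genes, and without these 3, picked after their values were seen, the summed level was 3331 CPM in PB and 1909 in BM, 2175 in MCC, and 294 in MEF and 394 in iPSC.

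**Figure D1:**
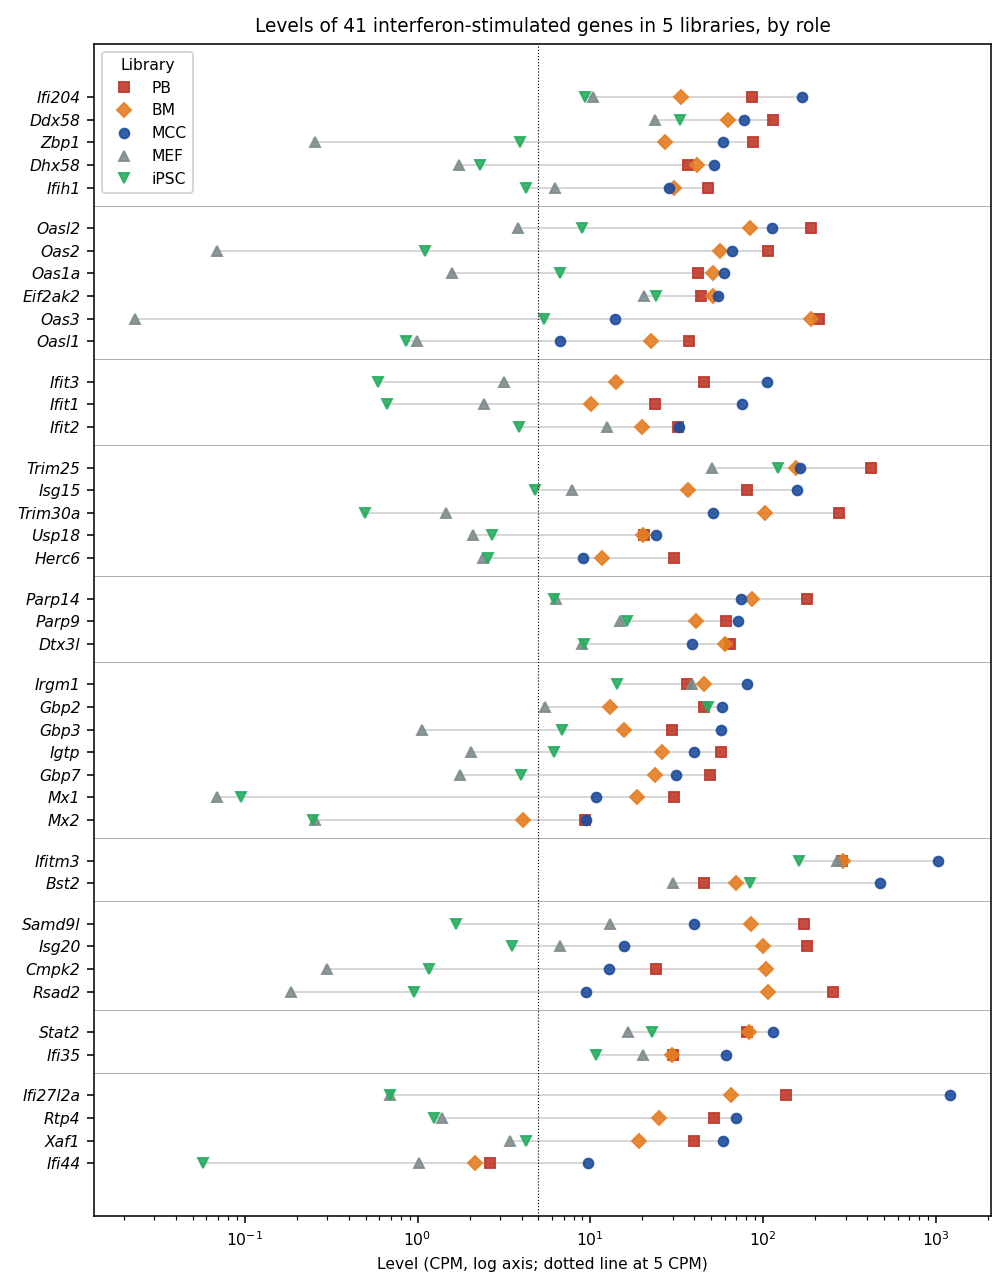
Level of each of the 41 interferon-stimulated genes in each library, in CPM on a log axis, with genes grouped by role and sorted by MCC level, 1 symbol per library and no error bars because each group is 1 library. MEF and iPSC lie at the left for most genes, while the MCC circle lies to the right of both blood libraries for Ifi27l2a, Bst2, Ifitm3, Ifit1 and Ifit3 and to the left of both for Oas3, Rsad2, Cmpk2 and Isg20.

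Levels of different genes were compared per kilobase of the longest annotated transcript. In MCC, Ifi27l2a was the highest member at 2619 CPM per kb, followed by Ifitm3 at 1522, Bst2 at 601, Isg15 at 207, Ifi204 at 73.0 and Ifit3 at 60.2 CPM per kb; the last 2 changed places per union of exons. The lowest in MCC were Herc6 at 1.89, Rsad2 at 2.27, Ifi44 at 2.40 and Oas3 at 2.96 CPM per kb. In the other 4 libraries Ifitm3 led, with 420 CPM per kb in PB, 429 in BM, 397 in MEF and 237 in iPSC. The median member stood at 22.0 CPM per kb in PB and 12.8 in BM, 19.6 in MCC, and 1.19 in MEF and 1.49 in iPSC.

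**Figure D2:**
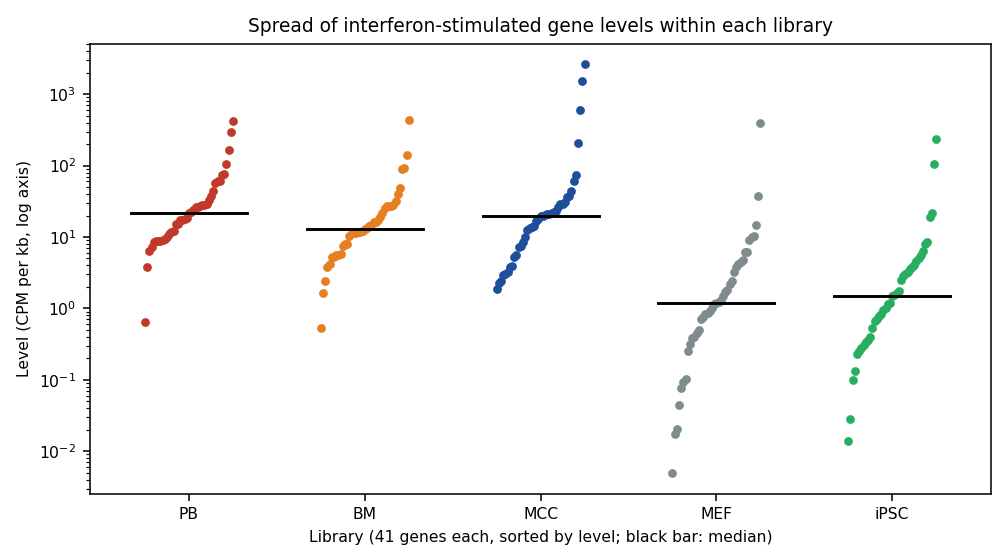
Level per kilobase of transcript of the 41 genes within each library (log axis), each dot 1 gene sorted by level, with a black bar at the median. The medians of PB, BM and MCC lie between 12.8 and 22.0 CPM per kb and those of MEF and iPSC at 1.19 and 1.49, while 3 MCC genes stand at 601 CPM per kb or more.

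MCC was set against MEF first, since fibroblasts are the starting cells named in the title. A gene counts here as higher or lower when its CPM ratio was at least 4-fold, with at least 5 CPM in the higher library. Of 41 members, 31 were higher in MCC, 0 were lower and 10 were neither, where 8.05% of the 11720 genes tested were higher and 2.71% lower. The members' median log2 ratio was 4.02, beside −0.01 over all genes tested. Against iPSC, 35 members were higher and 0 lower, with a median of 3.14. Of all genes tested 11.3% were higher and 9.77% lower, with a median of 0.14. Under total-count scaling 31 members were higher than in iPSC and 0 lower, beside 1161 and 1613 of all genes. All 41 members had a ratio above 1 in both comparisons, which share the MCC library; under total-count scaling the ratio of Gbp2 to iPSC turned below 1. Macrophage markers were also higher in MCC than in either library (above), and their part in these counts was not tested.

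Against the blood libraries the members went both ways. Of 41 members, 8 were higher in MCC than in BM, 4 were lower and 29 were neither, beside 15.6% higher and 13.5% lower over all genes tested. Both shares are near those of the members. Against PB, 2 were higher, 6 lower and 33 neither, beside 21.5% higher and 15.4% lower over all genes. The upward count thus lay below the background, and the downward count was near it. The members' median log2 ratio was 0.41 to BM and 0.02 to PB, where all genes tested had medians of 0.11 and 0.38. The median to PB turned to −0.26 with DESeq2 size factors. The genes past the rule upward against BM were Ifi27l2a, Ifit1, Ifit3, Bst2, Ifi204, Ifi44, Gbp2 and Isg15, and those downward Oas3, Rsad2, Cmpk2 and Isg20. Against PB the upward genes were Bst2 and Ifi27l2a, and the downward ones Rsad2, Oas3, Isg20, Oasl1, Trim30a and Samd9l. Erythroid, neutrophil and lymphocyte markers were also far lower in MCC than in these libraries, and macrophage and fibroblast markers higher. Their part in the members' values was not tested.

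**Figure D3:**
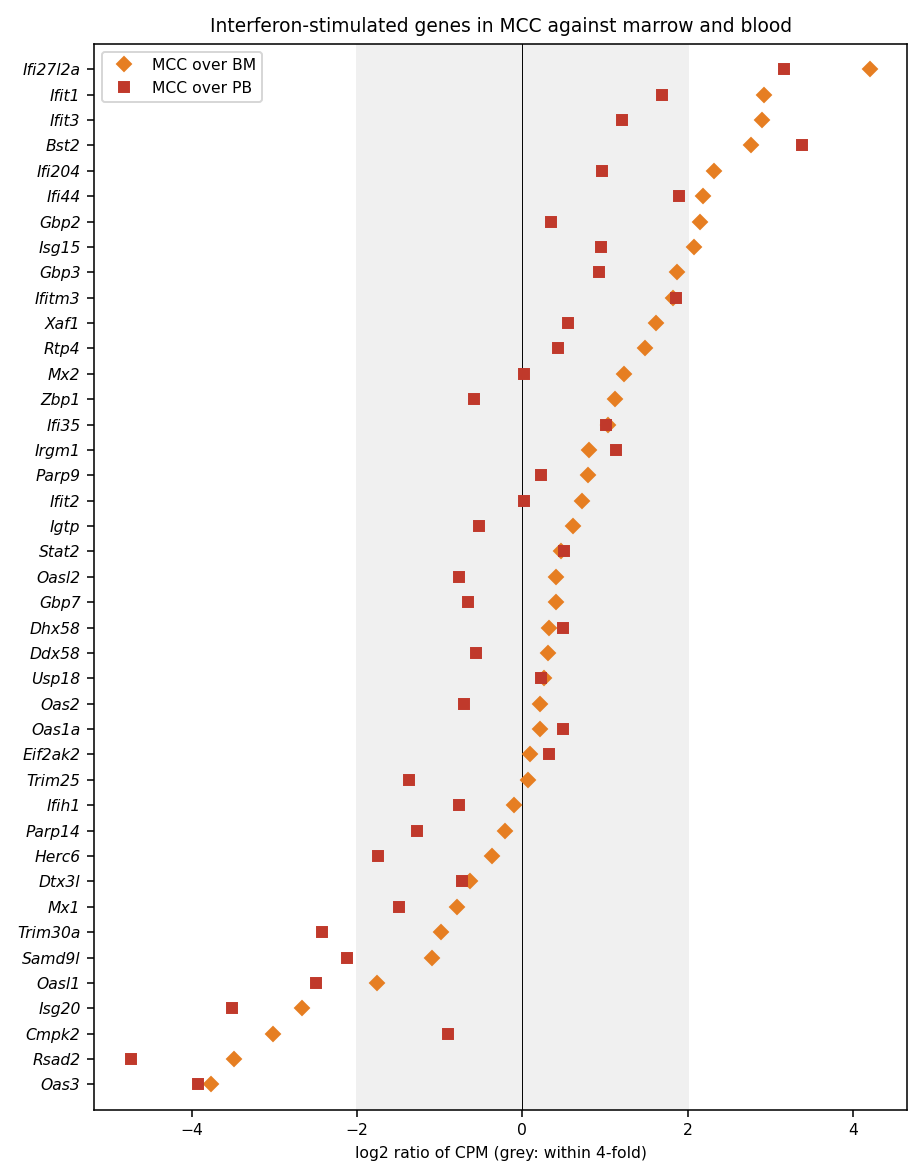
The log2 ratio of CPM in MCC over BM (diamonds) and over PB (squares) for the 41 genes, sorted by the ratio to BM, with ratios within 4-fold in grey. Both ratios share the MCC library, so the series are not independent; Oas3, Rsad2 and Isg20 lie beyond the grey band to the left in both, and Bst2 and Ifi27l2a to the right in both.

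Of the 5 nucleic acid sensor genes, 4 stood in MCC within 4-fold of both blood libraries. Ddx58, which encodes the short-RNA sensor RIG-I, stood at 114 CPM in PB and 62.2 in BM, 77.2 in MCC, and 23.6 in MEF and 32.9 in iPSC. Its ratio of MCC to MEF, 3.27-fold (95% counting interval 3.05 to 3.51), was short of the rule. Such intervals, given in brackets from here on, cover counting error only. Ifih1, the gene of the long-RNA sensor MDA5, was at 48.1 CPM in PB and 30.5 in BM, 28.4 in MCC, and 6.27 in MEF and 4.25 in iPSC. Dhx58 encodes LGP2, a relative that tunes the other 2, and stood at 36.8, 41.3, 51.8, 1.73 and 2.30 CPM in the same order. All 3 genes were thus present in MEF, with Ddx58 the nearest to its MCC level. Zbp1, a sensor of Z-form nucleic acid that can trigger cell death, was at 87.3 CPM in PB and 26.9 in BM, 58.5 in MCC, and 0.254 in MEF and 3.92 in iPSC, 230.0-fold (128 to 461) higher in MCC than in MEF. Ifi204, a DNA-binding member of the p200 family, was the only sensor past the rule against BM. It stood at 85.9, 33.5, 168, 10.3 and 9.34 CPM, 5.01-fold (4.72 to 5.31) higher in MCC than in BM. Of the 5 sensors, 4 were higher in MCC than in MEF and 4 higher than in iPSC, and Ddx58 was neither in both.

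The OAS enzymes, which make the 2-5A signal that activates the nuclease RNase L, divided within a single gene cluster. Oas1a was at 41.8 CPM in PB and 51.0 in BM, 59.0 in MCC, and 1.57 in MEF and 6.70 in iPSC. Oas2 was at 107, 56.5, 65.6, 0.0694 and 1.11 CPM in the same order. Both therefore stood in MCC within 2-fold of each blood library. Oas3 stood at 211 CPM in PB and 189.9 in BM, 14.0 in MCC, and 0.0231 in MEF and 5.36 in iPSC. It was 13.6-fold (12.5 to 14.8) lower in MCC than in BM and 15.1-fold (13.9 to 16.5) lower than in PB. MEF had 1 read of Oas3, and the ratio of MCC to MEF was 604-fold with a wide interval (108 to 23878), from the reads as counted; the log2 ratio used in the medians, with that read set to 3, was 7.65. In iPSC, by contrast, 280 reads were counted, so the ratio of MCC to iPSC was 2.61-fold (2.26 to 3.01) and short of the rule. Per kilobase, Oas3 stood above Oas2 and Oas1a in PB and BM and below both in MCC: the ratio of Oas2 to Oas3 was 0.605 in PB, 0.355 in BM and 5.60 in MCC. Per kilobase of the union of exons the order turned in BM, where Oas1a stood at 27.1 and Oas3 at 26.9 CPM per kb. The genes lie on mm10 chromosome 5, all on the minus strand: Oas2 at 120730333 to 120749853, Oas3 at 120753098 to 120777661 and Oas1a at 120896256 to 120907521. The gap between Oas2 and Oas3 is 3244 bases. No exon of another annotated gene overlaps those of Oas3. The promoter stretches given above hold 2 overlapping cores for Oas1a and 1 for Oas3. Oas2 had no promoter window and was not searched.

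The OAS-like genes also differed from each other. Oasl2 stood at 190.1 CPM in PB and 84.2 in BM, 112 in MCC, and 3.82 in MEF and 8.92 in iPSC, and its neighbour Oasl1 at 37.4, 22.5, 6.67, 0.994 and 0.861 CPM. Oasl1 was 5.62-fold (4.93 to 6.41) lower in MCC than in PB and 3.38-fold (2.96 to 3.87) lower than in BM, the latter short of the rule. Eif2ak2, which encodes the translation-blocking kinase PKR, varied least in this group. Its levels were 43.7 CPM in PB and 51.5 in BM, 54.8 in MCC, and 20.3 in MEF and 24.1 in iPSC, 2.70-fold (2.49 to 2.92) apart between MCC and MEF. Of the 6 genes in the group, 5 were higher in MCC than in MEF and 4 higher than in iPSC.

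IFIT proteins bind RNA that lacks the cap marks of the host, and the genes Ifit1 and Ifit3 stood above both blood libraries in MCC. Ifit3 stood at 45.4 CPM in PB and 14.1 in BM, 105 in MCC, and 3.17 in MEF and 0.593 in iPSC. Ifit1 stood at 23.6, 10.04, 75.9, 2.43 and 0.670 CPM. For both genes MCC was the highest library and iPSC the lowest. In MCC, Ifit1 was 7.56-fold (6.82 to 8.397) and Ifit3 7.46-fold (6.84 to 8.15) higher than in BM, and 3.22-fold (2.96 to 3.49) and 2.32-fold (2.18 to 2.46) apart from PB. Ifit2 stood closer to the other libraries, at 32.2 CPM in PB and 19.8 in BM, 32.6 in MCC, and 12.5 in MEF and 3.85 in iPSC. Its MCC to MEF ratio was 2.60-fold (2.36 to 2.88). Per kilobase, Ifit2 was the highest IFIT gene in MEF and iPSC, with 3.28 and 1.01 CPM per kb, and the lowest in MCC, with 8.55 CPM per kb against 60.2 for Ifit3. Ifit3 and Ifit1 have close copies, Ifit3b and Ifit1bl1, whose reads the counting could have divided; in MCC these copies had 21.6 and 8.66 CPM, and in BM 4.66 and 3.09.

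**Figure D4:**
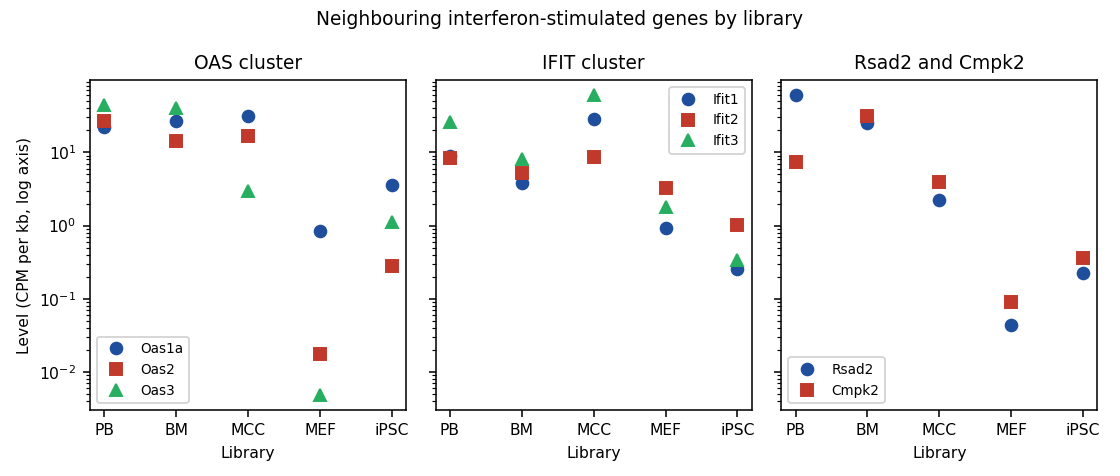
Level per kilobase (log axis) in each library of neighbouring genes in the OAS cluster, the IFIT cluster and the Rsad2 and Cmpk2 pair, 1 symbol per gene. With the longest transcript as length, Oas3 is the highest OAS gene in PB and BM (per union of exons it is just below Oas1a in BM) and the lowest in MCC and MEF; Ifit2 is the highest IFIT gene in MEF and iPSC and the lowest in MCC; Rsad2 lies above Cmpk2 in PB only.

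Rsad2 and the other effectors of nucleotide and RNA metabolism formed the group lowest in MCC relative to blood. Rsad2 encodes viperin, which makes a chain-terminating nucleotide, and stood at 252 CPM in PB and 106 in BM, 9.49 in MCC, and 0.185 in MEF and 0.957 in iPSC. It was 26.6-fold (24.0 to 29.4) lower in MCC than in PB and 11.2-fold (10.1 to 12.4) lower than in BM. Cmpk2, a mitochondrial nucleotide kinase gene, lies 12751 bases from it on chromosome 12, in the opposite orientation. Its levels were 24.0 CPM in PB and 104 in BM, 12.8 in MCC, and 0.301 in MEF and 1.17 in iPSC. The ratio of MCC to BM was 8.11-fold (7.42 to 8.88) lower, and that to PB 1.87-fold (1.67 to 2.09) lower. Cmpk2 was also the only member highest in BM, and the ratio of Rsad2 to Cmpk2 per kilobase was 8.22 in PB but between 0.481 and 0.799 in the other 4 libraries.

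Isg20, an RNA exonuclease gene, stood at 179 CPM in PB and 99.5 in BM, 15.7 in MCC, and 6.66 in MEF and 3.52 in iPSC. It was 11.4-fold (10.5 to 12.4) lower in MCC than in PB and 6.32-fold (5.83 to 6.87) lower than in BM, and its ratio to MEF was 2.36-fold (2.06 to 2.72). Samd9l, a poxvirus restriction and growth-restraining gene, was at 173, 85.1, 40.0, 13.0 and 1.66 CPM, 4.33-fold (4.10 to 4.58) lower in MCC than in PB. MEF stood above iPSC for Samd9l by 7.81-fold (6.22 to 9.90). Of the 4 genes of this group, 3 were lower in MCC than in BM and 3 lower than in PB, and 0 were higher in either comparison. All 4 were higher in MCC than in iPSC, and Rsad2 and Cmpk2 were higher than in MEF. Under total-count scaling, or where the counting bound had to reach 4-fold, Isg20 fell short of the rule against iPSC.

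The ISG15 system attaches a ubiquitin-like protein to new proteins, and its modifier gene was highest in MCC and its ligase gene highest in PB. Isg15 stood at 80.6 CPM in PB and 37.0 in BM, 156 in MCC, and 7.86 in MEF and 4.76 in iPSC. The excess of MCC over BM, 4.23-fold (3.997 to 4.47), passed the rule but fell short of it under DESeq2 and total-count scaling. Herc6, the gene of the main mouse ISG15 ligase, stood at 30.3, 11.6, 9.03, 2.40 and 2.56 CPM. It was below the rule against MEF (3.75-fold, 3.02 to 4.71) and against iPSC (3.52-fold, 2.89 to 4.32). Usp18, which encodes the enzyme that removes ISG15 and restrains the interferon receptor, was close in the blood libraries and MCC, at 20.6, 20.1 and 24.0 CPM, with 2.10 CPM in MEF and 2.70 in iPSC. Trim25, a ubiquitin ligase gene acting with RIG-I, had substantial levels everywhere: 422 CPM in PB and 156 in BM, 163 in MCC, and 50.4 in MEF and 121 in iPSC. Its ratio of MCC was 3.23-fold (3.08 to 3.39) to MEF and 1.34-fold (1.30 to 1.39) to iPSC. Trim30a, a TRIM-family gene of immune cells, had 276 CPM in PB and 102 in BM, 51.5 in MCC, and 1.46 in MEF and 0.497 in iPSC, 5.37-fold (5.12 to 5.63) lower in MCC than in PB. Its near copy Trim30d was at 78.2, 25.2, 13.3, 1.36 and 0.172 CPM, so how reads were divided between the pair is uncertain.

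The ADP-ribosylation genes were all higher in MCC than in MEF and iPSC. Parp9, whose product works in a complex with that of Dtx3l, stood at 60.8 CPM in PB and 40.998 in BM, 71.1 in MCC, and 14.9 in MEF and 16.3 in iPSC. Dtx3l was at 64.5, 60.5, 39.0, 8.90 and 9.18 CPM, and Parp14, a larger relative, at 179.8, 86.4, 74.5, 6.31 and 6.14 CPM. The ratios of MCC to MEF were 4.78-fold (4.39 to 5.21) for Parp9, 4.38-fold (3.91 to 4.90) for Dtx3l and 11.8-fold (10.4 to 13.4) for Parp14. Parp9 and Dtx3l overlap head to head on chromosome 16 by 682 bases. Of the exon bases of Parp9, 9.40% lie under Dtx3l, and the strand setting of the counting is not given, so reads there cannot be assigned. Under total-count scaling Parp9 and Dtx3l fell short of the rule against iPSC.

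The GTPase genes were spread over a wide range in MEF and iPSC. Irgm1, a regulator of the immunity-related GTPases, stood at 36.4 CPM in PB and 45.8 in BM, 80.1 in MCC, and 38.9 in MEF and 14.3 in iPSC. Its MCC to MEF ratio of 2.06-fold (1.94 to 2.19) was the smallest of the 41. Igtp, a partner of the same family, stood at 56.8, 26.0, 39.7, 2.03 and 6.16 CPM, 19.5-fold (15.7 to 24.4) higher in MCC than in MEF. Gbp2, a guanylate-binding protein gene, was the member nearest to its MCC level in iPSC, except under total-count scaling, where Trim25 was nearer. It stood at 45.5 CPM in PB and 13.1 in BM, 57.8 in MCC, and 5.46 in MEF and 48.0 in iPSC, 8.80-fold (7.70 to 10.1) lower in MEF than in iPSC. Gbp3 was at 29.8, 15.6, 56.9, 1.06 and 6.81 CPM and Gbp7 at 49.4, 23.6, 31.2, 1.76 and 3.96 CPM. Per kilobase, the ratio of Gbp2 to Gbp3, its neighbour on chromosome 3, was 7.52 in iPSC, 5.47 in MEF, 1.63 in PB, 1.08 in MCC and 0.893 in BM.

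The Mx genes, antiviral dynamin-like GTPases, stood below 1 CPM in MEF and iPSC. Mx1 stood at 30.3 CPM in PB and 18.7 in BM, 10.8 in MCC, and 0.0694 in MEF and 0.0957 in iPSC, the last 2 values being 3 and 5 reads. Mx2, annotated as a polymorphic pseudogene, stood at 9.34, 4.05, 9.49, 0.254 and 0.249 CPM. Many inbred laboratory strains carry defective Mx alleles, and the strain of these libraries is not given. Of the 7 GTPase genes 6 were higher in MCC than in MEF and 6 higher than in iPSC. The exception was Irgm1 in the first comparison and Gbp2 in the second. Gbp2 alone was higher than in BM, by 4.43-fold (4.03 to 4.87), and none of the 7 passed the rule against PB.

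Both membrane restriction factors were highest in MCC. Bst2 encodes tetherin, which holds budding virus at the cell surface. It stood at 45.5 CPM in PB and 70.0 in BM, 476 in MCC, and 29.9 in MEF and 84.4 in iPSC. MCC was 10.4-fold (9.89 to 11.05) higher than PB and 6.79-fold (6.53 to 7.07) higher than BM, and iPSC stood above both blood libraries. Bst2 is also a marker of plasmacytoid dendritic cells. Of 7 other listed markers of those cells, 1 reached 5 CPM in MCC and 7 did in BM, with summed levels of 126 CPM in MCC, 297 in BM and 245 in PB. That 1 was Tcf4, at 71.5 CPM in PB and 44.5 in BM, 120 in MCC, and 90.0 in MEF and 31.5 in iPSC. Siglech was at 0.139 CPM in MCC and 45.3 in BM. Their part in the Bst2 level was not tested. Ifitm3, which blocks virus entry from endosomes, stood at 284 CPM in PB and 291 in BM, 1032 in MCC, and 269 in MEF and 161 in iPSC. Its ratio of MCC to MEF was 3.83-fold (3.76 to 3.91), to BM 3.55-fold (3.48 to 3.62) and to PB 3.63-fold (3.54 to 3.71), all short of the rule. To iPSC the ratio was 6.41-fold (6.26 to 6.56).

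Stat2, the STAT protein specific to type I and III interferon signalling, stood at 80.3 CPM in PB and 82.5 in BM, 114 in MCC, and 16.6 in MEF and 22.6 in iPSC. It was 6.90-fold (6.38 to 7.47) higher in MCC than in MEF and 5.06-fold (4.75 to 5.40) higher than in iPSC, the latter short of the rule under total-count scaling. Ifi35, a partner of the signalling protein NMI, stood at 30.0, 29.5, 60.6, 20.3 and 10.8 CPM. Its ratio of MCC to MEF was 2.99-fold (2.77 to 3.23). Of the exon bases of Ifi35, 16.8% are also covered by an antisense gene, and its counts are uncertain to that extent.

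Ifi27l2a had the largest ratio of MCC to BM, MEF and iPSC among the 41. The gene, whose small mitochondrial product is also called ISG12, stood at 135 CPM in PB and 65.6 in BM, 1213 in MCC, and 0.694 in MEF and 0.689 in iPSC. In reads these were 4047, 2671, 52391, 30 and 36. MCC was 8.95-fold (8.67 to 9.24) higher than PB, 18.5-fold (17.8 to 19.2) higher than BM, 1748-fold (1224 to 2591) higher than MEF and 1761-fold (1272 to 2514) higher than iPSC. The gene lies on chromosome 12 at 103442167 to 103443680 and no other annotated exon overlaps it. It is among the 11 members of families with near-identical copies, so how its reads were divided is uncertain. Rtp4, a chaperone gene with antiviral activity, stood at 51.7 CPM in PB and 25.02 in BM, 69.7 in MCC, and 1.39 in MEF and 1.24 in iPSC. Xaf1, a cell-death gene, was at 39.8, 19.1, 58.7, 3.42 and 4.27 CPM, and Ifi44 at 2.61, 2.14, 9.74, 1.02 and 0.0574 CPM, the iPSC value being 3 reads. For all 4 genes MCC was the highest library under the scaling used here, and all 4 were higher in MCC than in MEF and in iPSC.

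PB and BM differed little by the 4-fold rule. Of the 40 members at 5 CPM or more in either, 0 were higher in PB and 1, Cmpk2, was lower (4.35-fold, 4.02 to 4.71), beside 6.32% and 9.68% of all genes tested. With DESeq2 size factors Cmpk2 also fell short. Of those 40, 32 had a ratio above 1, against 43.1% of all genes tested, and the median log2 ratio over all 41 was 0.92, against −0.18 over all genes tested. At 2-fold, 19 members were higher in PB and 1 lower, beside 1824 higher and 2665 lower of the 11377 genes tested. The largest ratios were those of Gbp2 (3.48-fold, 3.15 to 3.86), Zbp1 (3.24-fold, 3.02 to 3.48) and Ifit3 (3.22-fold, 2.92 to 3.56). PB also held more erythroid and more T and NK cell transcripts and BM more neutrophil transcripts (above), whose part in these values was not tested.

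MEF and iPSC each had 18 members at 5 CPM or more, and most members passed the rule in neither direction. Of the 23 members that reached 5 CPM in either, 1 was higher in MEF, Samd9l, and 4 were higher in iPSC, namely Oas3, Gbp2, Gbp3 and Oas1a, beside 6.37% and 8.83% of all genes tested. Oas3 had 1 read in MEF and 280 in iPSC, a 232-fold difference with a wide interval (41.2 to 9182) from the reads as counted, or a log2 ratio of −6.27 with that read set to 3. The other 18 members lay below 5 CPM in both. Among these, Ifit3 was at 3.17 CPM in MEF and 0.593 in iPSC, whereas Oas2 was at 0.0694 and 1.11 CPM and Zbp1 at 0.254 and 3.92 CPM.

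Members with and without the promoter core, described above, had different medians in some comparisons. The 14 members with it had a median log2 ratio of MCC to MEF of 4.64, with 13 higher and 0 lower, and the 16 with a window and no match had 1.92, with 7 higher and 0 lower. To BM the medians were 0.71 and 0.08, to PB 0.50 and −0.74, and to iPSC 3.02 and 2.71. All 4 comparisons share the MCC library, and the difference between the lists was not tested. Ifit1, Ifit3, Oas1a, Trim30a, Gbp2, Gbp3 and Gbp7, all with the core, belong to the 11 members of families with near-identical copies. No member without a match does, so the lists also differ in this. Leaving out those 11 lowered the median over members from 4.02 to 3.02 for MCC to MEF and from 0.02 to −0.54 for MCC to PB. Among the 14 were Oas3 and Rsad2, which were lower in MCC than in both blood libraries.

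The genes that produce, receive and relay interferon were read beside the members. Of 4 type I and III interferon genes in the table, none reached 5 CPM in any library. Ifnb1, the gene of interferon beta, had 3 reads each in PB, BM and MCC and 0 in MEF and iPSC; a count of 0 allows up to 0.0694 CPM in MEF and 0.0574 CPM in iPSC. The other 15 listed symbols were not analysed here. Ifng, the T and NK cell interferon gene, stood at 2.51 CPM in PB and 0.270 in BM, with 0 reads in MCC, MEF and iPSC. Transcripts of Ifnb1 were thus at a trace in MCC.

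Receptor, kinase and STAT genes lay closer together in MCC and MEF than the members, and the regulatory factors less so. The median log2 ratio of MCC to MEF over genes tested was 1.25 for receptors and 0.32 for kinases and STATs. It was 2.33 for the regulatory factors, beside 4.02 for the members. The receptor gene Ifnlr1 had 0 reads in MCC and stood at 45.9 CPM in BM. Of 6 receptor genes, 1 was higher in MCC than in MEF, Il10rb, and 0 were lower, while 4 were higher than in iPSC. Of all genes tested, 8.05% were higher in MCC than in MEF and 11.3% higher than in iPSC. Ifnar1, a chain of the type I receptor, stood at 147 CPM in PB and 95.9 in BM, 111 in MCC, and 71.0 in MEF and 46.8 in iPSC, and Ifngr2, of the type II receptor, at 77.5, 78.2, 111, 71.7 and 15.9 CPM. Ifngr1, the other type II chain, was at 459 CPM in PB and 83.7 in MCC. Jak1, a receptor-bound kinase gene, was at 870.4 CPM in PB and 325 in BM, 354 in MCC, and 283 in MEF and 105 in iPSC, and Stat3 at 340.3, 252, 276, 229 and 111 CPM. Of 9 interferon regulatory factor genes, 4 were higher in MCC than in MEF (Irf5, Irf7, Irf8 and Irf9) and 0 lower. Irf7 stood at 181, 108, 114, 3.42 and 1.43 CPM, Irf9 at 117, 133, 91.5, 18.2 and 11.2, Irf8 at 156, 272, 69.7, 0.0694 and 1.49, and Irf1 at 227, 72.8, 50.9, 20.002 and 49.3.

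Adaptor genes and negative regulators were read by the same rule, by which 8.05% of all genes tested were higher in MCC than in MEF. The adaptor share below is near that, and the share of negative regulators is above it. Of 10 adaptor and kinase genes, 1 was higher in MCC than in MEF, the DNA sensor gene Aim2. Sting1, the adaptor of cytosolic DNA sensing, stood at 45.6 CPM in PB and 48.1 in BM, 138 in MCC, and 57.8 in MEF and 5.47 in iPSC, and Myd88, the Toll-like receptor adaptor, at 98.8, 89.5, 88.5, 28.2 and 13.7. Traf3 and Ikbke, signalling genes, were highest in PB at 123 and 114 CPM, with 30.7 and 45.6 in MCC. Of 7 negative regulators 3 were higher in MCC than in MEF: Socs1, a feedback inhibitor of JAK kinases, at 12.2, 6.604, 23.4, 5.43 and 3.56 CPM, Socs3 at 322, 49.4, 228, 25.1 and 100.5, and the phosphatase gene Ptpn6 at 305, 425, 192, 0.486 and 18.0. Of 6 genes that clear self nucleic acids 1 was higher in MCC than in MEF, the lysosomal nuclease gene Dnase2a, at 114 against 21.4 CPM. Samhd1, a nucleotide hydrolase gene, stood at 908, 429, 214, 72.2 and 55.8 CPM and Adar, an RNA-editing gene, at 121, 133, 53.3, 22.7 and 34.97. Across these lists 0 genes were lower in MCC than in MEF, beside 2.71% of all genes tested.

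A further 51 interferon-stimulated genes, outside the 41, were counted by the same rule. Of the 44 at 5 CPM or more in MCC or MEF, 29 were higher in MCC and 0 lower, beside 8.05% and 2.71% of all genes tested. Against BM 6 of 46 were higher and 4 lower, beside 15.6% and 13.5%, and the upward share is near the background. Against PB 4 of 49 were higher and 12 lower, beside 21.5% and 15.4%. Lgals3bp, a secreted glycoprotein gene, stood at 97.3 CPM in PB and 117 in BM, 515 in MCC, and 57.4 in MEF and 2.01 in iPSC. Ifitm2, a relative of Ifitm3, was at 92.2, 61.7, 396, 72.3 and 43.1 CPM. In PB the leading genes were Shisa5, at 984 CPM against 248 in MCC, and Ube2l6, the ISG15-conjugating enzyme gene, at 804 against 74.2.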

How the data were processed

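The values are read counts per gene symbol for 5 libraries, deposited by the authors as whole numbers without normalization; STAR, featureCounts and the build mm10 are named per the submitters' processing notes. Trizol was used for extraction and polyA RNA was sequenced, per the labels' protocols. Versions, annotation, strand setting and filters: not given in the sources used here. All 5 columns were matched to a library by name.

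CPM was computed on library sizes scaled with edgeR 4.0.16 (TMM over all 5 libraries) in R 4.3.3, and the rest in Python 3.11.15 with scipy 1.17.1. A gene was tested where 1 of the 2 libraries compared reached 5 CPM, and counted as higher or lower from 4-fold on, where a count below 3 was replaced by 3; 6 comparisons were made. Intervals are exact 95% Clopper-Pearson (conditional binomial) and cover counting error only, since reads without molecular identifiers are not independent molecules. With 1 library per group no test was possible. The calculation was checked on simulated counts. Lengths and positions came from GENCODE M21 (mm10) and promoter windows from RefSeq (GRCm38.p6), which matched 30 of 41 members.

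The members and lists were chosen with earlier results of these data known. Every member could be named. Values in all libraries were given for the leading members of each role group, for those lower in MCC and for those short of the rule against MEF. From each other list the 2 genes highest in MCC and the 2 highest elsewhere were taken, and further genes that passed the rule were named after their values were seen. Of the listed genes outside the members, 1 is not reported here.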

Additional observations from a re-analysis of the deposited data

How the results depend on the processing

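With 1 library per group no library could be left out and no paired analysis was possible because each group has 1 sample. The alternatives were DESeq2 1.42.0 size factors, total counts, no level filter, a minimum of 20 CPM, the counting bound, 2-fold, removal of mitochondrial genes, haemoglobin genes and the leading 10 of each library, and 30 members without 11 of families with near-identical copies. These 11 were Ifit1, Ifit3, Oas1a, Trim30a, Ifi204, Ifi27l2a, Mx1, Mx2, Gbp2, Gbp3 and Gbp7, whose reads the counting could have divided among copies. Of the recomputed counts, 107 stayed within 1.5 times the reported one and 19 did not. Without the family members, those higher in MCC numbered 20 against MEF, 3 against BM and 1 against PB, and 1 member was lower in MEF than in iPSC; fewer members were counted by construction. At 2-fold, 15 were higher in MCC than in BM, 8 were higher and 10 lower than in PB, 19 were higher in PB than in BM, and 3 were higher and 8 lower in MEF than in iPSC. Over all genes at 2-fold, 3636 of 12427 were higher in MCC than in BM. Against PB 4839 of 12545 were higher and 3256 lower. In PB 1824 of 11377 were higher than in BM. In MEF 1973 of 11931 were higher than in iPSC and 1962 lower. Without a level filter the members higher and lower in MEF than in iPSC numbered 3 and 7, and at 20 CPM 0 and 1. Over all genes these counts were 1445 and 3136 without a level filter, and 492 and 464 at 20 CPM. With DESeq2 size factors 0 were lower in PB than in BM. At 1 CPM in place of 5, 32 members were counted in MEF and 32 in iPSC, and at 20 CPM 7 and 7. The median log2 ratio of MCC to PB, 0.02, reversed to −0.26 with DESeq2, −0.11 with total counts and −0.54 without the family members. DESeq2 moved the median over all genes by −0.32 (MCC to PB), −0.11 (MCC to BM) and 0.20 (PB to BM), and total counts by −0.15 (MCC to PB), −0.15 (MCC to BM), −0.43 (MCC to iPSC) and −0.38 (MEF to iPSC). These shifts move members and all genes alike. Less the median of all genes, the members' median for MCC to PB was −0.36 as reported, 0.56 without a level filter and −0.92 without the family members; for MCC to BM it was 0.30, 0.50 and 0.21, and for PB to BM 1.11, 0.48 and 0.90. Under total counts, 1161 genes were higher in MCC than in iPSC and 1613 lower, against 1410 and 1215, and 594 were higher in MEF than in iPSC and 1358 lower, against 760 and 1054. The longer promoter motif was in 9 members. Levels below 1 CPM in MEF and iPSC rest on few reads.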

Other observations

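Genes known for their response to interferon gamma were divided among the libraries. Of 12 listed, 5 passed the 4-fold rule upward in MCC over MEF (Cxcl10, Socs1, Psmb8, Psmb9 and Tap1) and 0 were lower. Of all genes tested 8.05% were higher and 2.71% lower. Of the 12, 6 did not reach 5 CPM in either. The proteasome gene Psmb8 stood at 84.5 CPM in PB and 87.8 in BM, 79.4 in MCC, and 5.32 in MEF and 8.80 in iPSC, and the peptide transporter gene Tap1 at 237, 169.8, 78.8, 8.74 and 25.3. Ciita, the master regulator gene of MHC class II, stood at 145 CPM in PB and 39.7 in BM, 0.278 in MCC, and 0.0463 in MEF and 0.0765 in iPSC. It was thus near 0 in MCC, where Psmb8 was at the level of blood. Cxcl9, Cxcl11 and Ido1 were below 2 CPM in all 5 libraries.

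Relatives of the members also differed in which library held them. Ifitm1 stood at 267 CPM in PB and 75.7 in BM, 18.2 in MCC, and 1.94 in MEF and 77.9 in iPSC, whereas Ifitm3 was highest in MCC. Gbp4, Gbp9 and Sp100 were higher in PB, at 107, 174 and 414 CPM, than in MCC, at 0.972, 14.0 and 52.4 CPM. Apol9a was an exception among the further interferon-stimulated genes, at 10.2 CPM in MEF, 6.48 in MCC and 0.167 in PB. These genes were picked after their values were seen.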
